A study of Cucumis melo with 12 samples.

Results

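A set of 172 genes, of 21691 in the deposited table, combined a modest level at the start with a strong loss of transcript during chilling in leaves of both melon varieties studied. A gene belonged to the set when its mean log2(FPKM + 1) was lower at 12 h than at 0 h by at least 1.5 in variety 162 and by at least 1.5 in variety 13-5A, and when its mean over the 6 libraries taken at 0 h was below 30 FPKM. FPKM are fragments scaled by gene length and by the size of the library, so levels are comparable between genes per length. The members were thus chosen by the measured changes over 12 h and the 0 h levels, and both are given below as a description with no test.

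Leaves of melon (Cucumis melo) were sampled from 162, which the labels call tolerant of chilling, and from 13-5A, which they call sensitive. The 4 groups were 162 after 12 h at 4 °C, 162 at 0 h, 13-5A after 12 h at 4 °C and 13-5A at 0 h, with 3 libraries each and 12 in all. All 4 groups carry the same 4 °C treatment label, and 0 h is read as the start of the exposure. The age of the plants, their temperature before sampling and the hour of day are not stated in the labels, nor is whether replicates were different plants. The p-values below therefore rest on the scatter among these libraries alone, and that scatter may be technical. No group analysed here was held unchilled to 12 h, so cold and elapsed time cannot be told apart. In a bulk leaf sample, fewer cells of a type and less RNA per cell cannot be told apart either.

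Melon is a warm-season cucurbit whose leaves are injured by temperatures well above freezing. The level of a messenger RNA reflects the balance between its synthesis and its decay, and both processes are regulated when plants are cooled. Transcripts that decline in the cold are commonly linked in other plants to growth and photosynthesis, while those that rise include cold acclimation regulators and their targets. The genes here carry only identifiers, none of which matched the name table at hand (0 matches), so no function is assigned to any of them and the leaf label could not be checked against marker genes.

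Recovered library totals, which the FPKM values allow to be solved for, ran from 41299369 to 45355323 reads. At the median gene length 1 FPKM stood for about 72.7 reads. The 15592 genes averaging 1 FPKM or more were tested, and all 172 members passed that minimum. The rule favours this, since a fall of its size needs a level above the minimum at 0 h.

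At 12 h the members had been reduced to a small part of their starting level in both varieties. The median member stood at 2.01, 1.82 and 1.75 FPKM in the 3 libraries of 162 at 12 h, against 11.5, 9.90 and 11.3 FPKM at 0 h. In 13-5A it stood at 1.80, 1.93 and 1.94 FPKM at 12 h, against 11.1, 12.4 and 11.9 FPKM at 0 h. The libraries of the times lay far apart and those of the varieties lay close together at each time. Summed over the members, 0.0658% ± 0.00606 of all FPKM was found in 162 at 12 h and 0.332% ± 0.0213 at 0 h (SD, n = 3 each). The same sum held 0.0702% ± 0.00532 in 13-5A at 12 h and 0.377% ± 0.0139 at 0 h (SD, n = 3 each). In summed FPKM, 19.2% of the 0 h level was left in 162 and 18.3% in 13-5A.

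**Figure D1:**
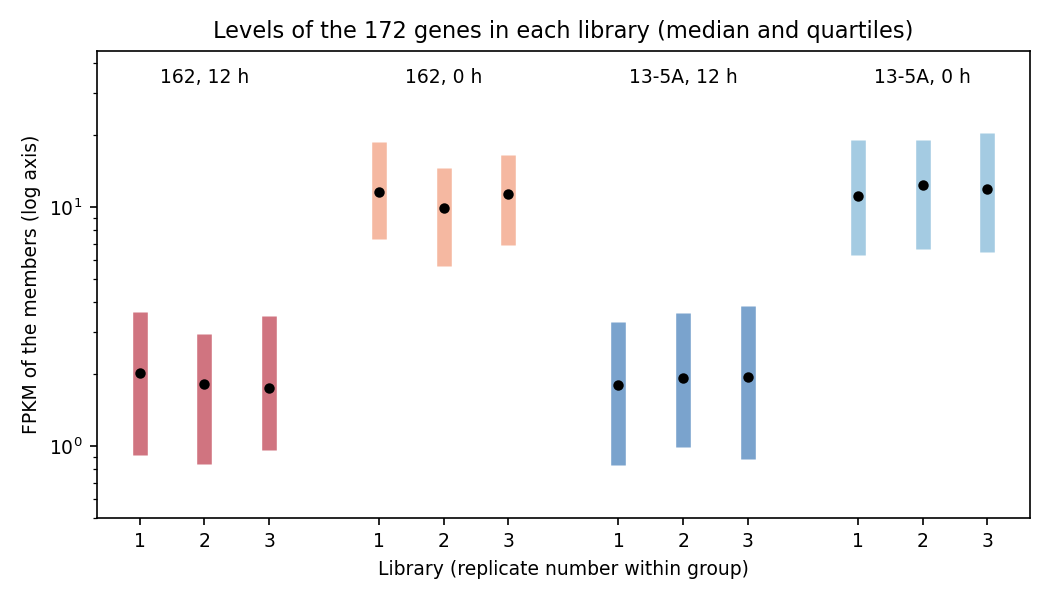
FPKM of the 172 members in each library on a log axis, with the median as a point and the quartiles as a bar, for 162 at 12 h and 0 h and for 13-5A at 12 h and 0 h. Medians lie between 1.75 and 2.01 FPKM in the 6 libraries taken at 12 h and between 9.90 and 12.4 FPKM in the 6 taken at 0 h.

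The change of the median member was -1.90 in 162 and -1.97 in 13-5A on the log2(FPKM + 1) scale. The members between the quartiles lay between -2.21 and -1.66 in 162 and between -2.26 and -1.73 in 13-5A. For comparison, the median of all tested genes was -0.12 in 162 and 0.07 in 13-5A. By limma with Benjamini-Hochberg adjustment over all tested genes, an adjusted p under 0.05 and a change of at least 2-fold, all 172 members were called lower at 12 h in each variety, where 10.6% of all tested genes were called lower in 162 and 9.06% in 13-5A. Nothing is read from this count, because the same contrasts chose the members.

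Replicates of the times rarely overlapped. In 13-5A the highest 12 h library lay below the lowest 0 h library in 172 of 172 members, against 27.8% of all tested genes. In 162 this held for 171 members, against 31.5% of all tested genes, again as a consequence of the choice. The exception was MELO3C010668.2, which also had the largest spread within groups among members with at least 5 FPKM at 0 h. It stood at 1.82, 1.57 and 15.5 FPKM in 162 at 12 h, against 22.6, 8.15 and 19.5 FPKM at 0 h. In 13-5A it stood at 7.75, 10.4 and 17.4 FPKM at 12 h, against 31.6, 51.3 and 42.3 FPKM at 0 h. Replicate 3 of 162 at 12 h lay within the range of the 0 h libraries, while the other two replicates lay below it. Its SD within groups was 0.90 on the log2 scale, where the median member had 0.30 and the median of all tested genes was 0.23.

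The depth of the fall varied among the members. A fall of at least 2 on the log2 scale was reached by 64 members in 162, by 80 in 13-5A and by 38 in both. A fall of at least 3 was reached by 4 members in 162, by 9 in 13-5A and by 1 in both. In linear terms the median member kept 18.4% of its 0 h FPKM in 162 and 17.1% in 13-5A, which are falls of 5.45-fold and 5.85-fold. Less than 10% was left in 25 members in 162, in 34 in 13-5A and in 16 in both. At the other end, the highest remainder was 37.5% in 162 and 31.1% in 13-5A.

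Because 1 is added before the logarithm is taken, members with the lowest 0 h levels had to lose the largest share to qualify. The 12 members below 5 FPKM at 0 h kept a median of 10.9% in 162 and 8.74% in 13-5A. The 56 members from 5 to 10 FPKM kept 16.9% and 15.6%, the 66 from 10 to 20 FPKM kept 18.7% and 20.3%, and the 38 from 20 to 30 FPKM kept 21.7% and 18.9%, each in 162 and in 13-5A. The share left was thus lowest in the least abundant members in both varieties, the direction in which the added 1 acts. The rank order of the members was largely kept during chilling, with a Spearman correlation between 12 h and 0 h levels of 0.859 in 162 and 0.853 in 13-5A. Between the varieties it was 0.759 at 12 h and 0.601 at 0 h. These are descriptions over 172 genes measured in shared libraries, and the rule, which bounds the change, contributes to the first pair. The rule also limits the 0 h levels, so the second pair is not free of it, and nothing is read from its difference.

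At 12 h, 28 members averaged below 1 FPKM in both varieties and 12 still averaged 5 FPKM or more in both. The highest group mean at 12 h was 13.6 FPKM. All 172 members had at least 1 FPKM in every 0 h library, with a lowest value of 1.78 FPKM. Every member was thus detected in all starting leaves.

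The strongest fall on average over both varieties belonged to MELO3C006700.2, a gene with a recovered length of 1231 bases. It had 0, 0.138 and 0.0373 FPKM in 162 at 12 h, against 9.55, 5.61 and 7.39 FPKM at 0 h. In 13-5A it had 0.0193, 0.0180 and 0.0184 FPKM at 12 h, against 15.3, 12.9 and 8.19 FPKM at 0 h. The 12 h values were near 0 in all 6 libraries and stand for 9 reads in 162 and 3 reads in 13-5A, against 1216 and 1978 reads at 0 h. Per library total, 0.753% of the reads were left in 162, with an exact 95% interval of 0.344% to 1.44%, and 0.152% in 13-5A, with an interval of 0.0314% to 0.445%. These intervals cover counting error only. The changes fitted on the log2(FPKM + 1) scale, -2.98 in 162 and -3.65 in 13-5A, are far smaller than these ratios because the added 1 exceeds the 12 h level.

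MELO3C012507.2, the next strongest, fell further in 162. It had 0.354, 2.59 and 1.05 FPKM in 162 at 12 h, against 64.1, 30.2 and 33.6 FPKM at 0 h. In 13-5A it had 1.55, 1.88 and 2.42 FPKM at 12 h, against 12.1, 12.7 and 14.6 FPKM at 0 h. The 12 h libraries of the varieties overlapped, whereas at 0 h all 3 libraries of 162 were above all 3 of 13-5A. The change was -4.26 (SE 0.33) in 162, the lowest of the set, and -2.27 (SE 0.33) in 13-5A.

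Outside the rule for names, 4 members with 0 reads in some library were looked at after their values were seen, MELO3C006700.2 among them. MELO3C011513.2, with a recovered length of only 153 bases, had 1 read in the 3 libraries of 162 at 12 h against 80 reads at 0 h, so 1.27% was left, with an exact 95% interval of 0.0318% to 7.30%. In 13-5A it had 0 reads at 12 h against 67 at 0 h, and with a floor of 3 reads per library it was at least 7.39-fold lower at 12 h. MELO3C015852.2 had 67 reads in 162 and 13 in 13-5A at 12 h, against 1047 and 639 at 0 h. MELO3C035523.2 had 83 reads in 162 and 14 in 13-5A at 12 h, against 566 and 309 at 0 h. Both of these kept more reads in 162 than in 13-5A at 12 h, and both also had more reads in 162 at 0 h.

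**Figure D2:**
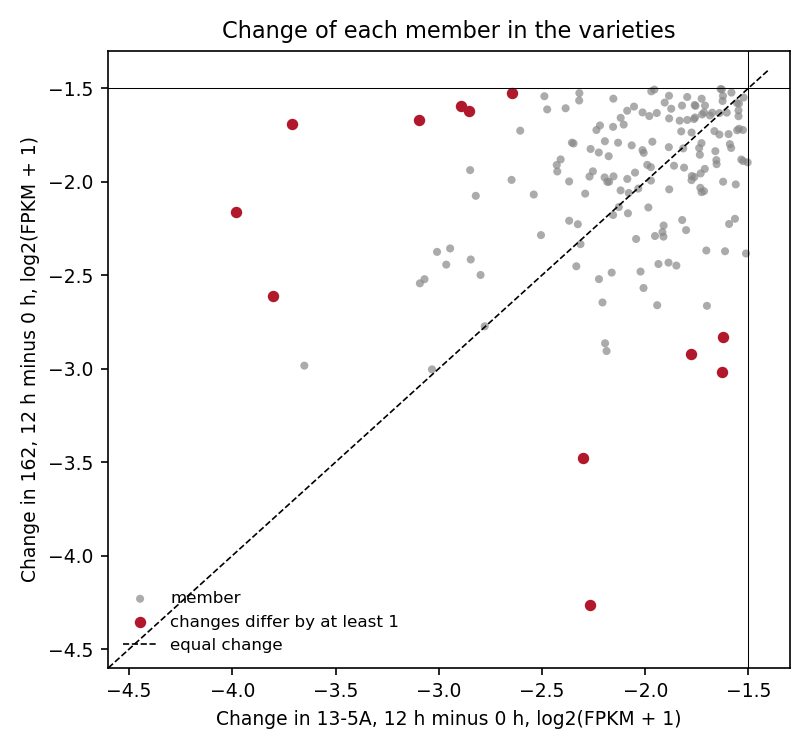
Change of each of the 172 members between 12 h and 0 h on the log2(FPKM + 1) scale, in 162 on the vertical axis and in 13-5A on the horizontal axis, with thin lines at the limit of -1.5 and a dashed line of equal change. Most members lie near the dashed line, and the 12 members marked in red, whose changes differ by at least 1, lie to both sides of it.

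The changes in the varieties were of like size for most members. They lay within 0.5 of each other in 125 of 172 members and differed by at least 1 in 12. The interaction, the change in 162 minus the change in 13-5A, had a median of 0.08 over the members and -0.16 over all tested genes. Its quartiles were -0.21 and 0.37 over the members and -0.47 and 0.13 over all tested genes. Changes of like size were thus not particular to the members. With median-ratio scaling the medians were 0.29 and 0.01, so the members stood above the median of all genes by about the same distance under either scaling. Without that scaling the interaction was positive, a larger fall in 13-5A, in 98 members and negative in 74. Of all tested genes it was positive in 5467 and negative in 10125. Limma called 7 members positive and 3 negative, 10 in all, where 1.04% of all tested genes were called positive and 2.37% negative, 3.41% together. The 10 became 3 with voom on the recovered reads and 4 to 9 when single libraries were left out. As the rule bounds both changes, these interactions are a description, and no test is read from them.

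The members with the widest gap between varieties differed mainly in where they started. MELO3C020857.2 had 1.32, 0.995 and 0.513 FPKM in 162 at 12 h, against 6.38, 4.45 and 4.88 FPKM at 0 h. In 13-5A it had 1.06, 0.830 and 1.37 FPKM at 12 h, against 28.3, 18.7 and 33.7 FPKM at 0 h. All 3 libraries of 13-5A at 0 h were above all others, and the 12 h libraries of the varieties overlapped. Its interaction was 2.02 (SE 0.32).

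MELO3C002459.2 also fell further in 13-5A. It had 0.595, 0.400 and 0.506 FPKM in 162 at 12 h, against 6.42, 5.88 and 4.89 FPKM at 0 h. In 13-5A it had 2.15, 1.60 and 1.97 FPKM at 12 h, against 49.7, 31.9 and 56.5 FPKM at 0 h. It was lower in 162 than in 13-5A at both times without overlap, but the gap was much wider at 0 h, and its interaction was 1.82 (SE 0.27). In linear terms it kept 8.73% of its 0 h FPKM in 162 and 4.15% in 13-5A. The added 1 narrows the gap at these low 12 h levels and so enlarges the interaction.

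Next to MELO3C012507.2, with an interaction of -2.0 (SE 0.47), the most negative interaction among members with at least 5 FPKM at 0 h was that of MELO3C025357.2. It had 2.20, 2.38 and 1.35 FPKM in 162 at 12 h, against 25.9, 18.4 and 24.8 FPKM at 0 h. In 13-5A it had 2.80, 2.75 and 3.27 FPKM at 12 h, against 10.6, 11.6 and 11.3 FPKM at 0 h. The 162 libraries were the higher ones at 0 h and the lower ones at 12 h, without overlap at either time. Its interaction was -1.39 (SE 0.24).

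Of the 7 members called positive, 6 were called lower in 162 than in 13-5A at 0 h, and all 3 called negative had a higher mean in 162 at 0 h. Over these 10 members the size of the difference between varieties had a median of 0.44 at 12 h and 1.59 at 0 h. The added 1 narrows differences more at the low 12 h levels than at 0 h. The interaction equals the 12 h difference minus the 0 h difference, so these values describe one pattern and are not separate evidence. MELO3C012372.2, named after its values were seen, was the exception, with a difference between 162 and 13-5A of 1.77 at 12 h and 0.53 at 0 h.

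**Figure D3:**
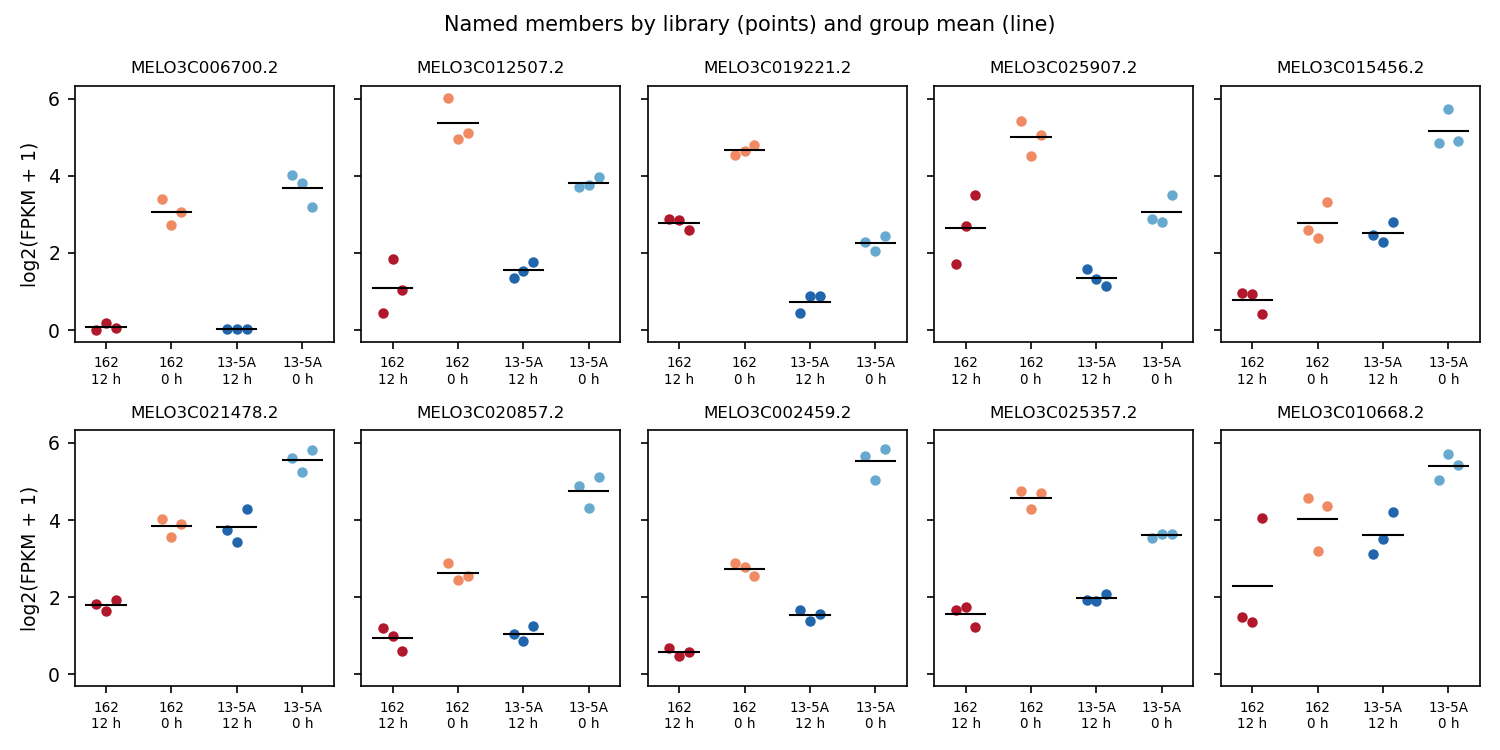
Level of the 10 named members as log2(FPKM + 1) in each library (points) with the group mean (line), for 162 at 12 h and 0 h and 13-5A at 12 h and 0 h. MELO3C019221.2 stays higher in 162 at both times, MELO3C015456.2 and MELO3C021478.2 stay lower in 162, and MELO3C020857.2 differs at 0 h with overlapping libraries at 12 h.

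The varieties were next compared for the level at which they held the members. The mean of the differences at 12 h and 0 h is, with equal group sizes, orthogonal to both changes that chose the members, and was the main test. It is not free of the rule, which needs a level well above 0 at 0 h in both varieties and caps their mean, and so leaves out genes present in 1 variety alone. The difference ran from -2.06 to 2.22 over the members and from -5.90 to 6.08 over all tested genes, so the shares called are set side by side as a description. By limma with Benjamini-Hochberg adjustment, 6 members were called higher in 162 than in 13-5A over both times and 10 lower, which are 3.49% and 5.81% of the members. Of all tested genes 7.25% were called higher and 2.37% lower, 9.62% together, against 9.30% of the members. The median difference was -0.05 over the members and 0.15 over all tested genes. With median-ratio scaling, which moved the median of all tested genes to -0.03, the median of the members was -0.24, and 3 members were called higher and 13 lower, where 4.70% and 3.69% of all tested genes were called. Under both scalings the members' median lay below that of all genes by about the same distance. Of the 16 calls, 13 were made with the same sign under median-ratio scaling and all 16 with limma voom on the recovered reads, which called 31 members in all, 15 higher and 16 lower.

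MELO3C019221.2 was the member most clearly higher in 162. It had 6.35, 6.20 and 5.05 FPKM in 162 at 12 h and 0.352, 0.853 and 0.832 FPKM in 13-5A at 12 h. At 0 h it had 22.2, 24.1 and 27.0 FPKM in 162 and 3.84, 3.15 and 4.47 FPKM in 13-5A. Even the chilled leaves of 162 were above the 0 h leaves of 13-5A in this gene. The difference over both times was 2.22 (SE 0.12, limma adjusted p = 4.29e-08), with adjusted p between 4.29e-08 and 8.17e-07 under 21 alternatives. It was the only member with all 6 libraries of 162 above all 6 of 13-5A, which held for 8.9% of all tested genes. The reverse held for 0 members and 2.6% of all tested genes. Nothing is read from these shares, because the rule requires a large fall in both varieties. Such a separation needs a gap between varieties larger than that fall.

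MELO3C025907.2 was also higher in 162. It had 2.29, 5.47 and 10.2 FPKM in 162 at 12 h and 2.01, 1.52 and 1.22 FPKM in 13-5A at 12 h. At 0 h it had 41.8, 22.0 and 32.5 FPKM in 162 and 6.40, 5.95 and 10.3 FPKM in 13-5A. The libraries of the varieties did not overlap at either time, but those of 162 at 12 h were widely spread. The difference over both times was 1.61 (SE 0.27, limma adjusted p = 0.000451; range under 21 alternatives 6.98e-05 to 0.00176).

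MELO3C015456.2 had the largest difference in the other direction. It had 0.949, 0.932 and 0.340 FPKM in 162 at 12 h and 4.54, 3.84 and 5.94 FPKM in 13-5A at 12 h. At 0 h it had 5.01, 4.25 and 9.04 FPKM in 162 and 27.9, 52.1 and 28.8 FPKM in 13-5A. The 0 h leaves of 162 and the chilled leaves of 13-5A thus overlapped in this gene. The difference over both times was -2.06 (SE 0.2, limma adjusted p = 1.06e-05; range under 21 alternatives 6.5e-06 to 8.23e-05).

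MELO3C021478.2, with a mean 0 h level of 29.9 FPKM the member nearest to the limit of 30 FPKM, was lower in 162 to a similar extent. It had 2.56, 2.12 and 2.81 FPKM in 162 at 12 h and 12.3, 9.77 and 18.6 FPKM in 13-5A at 12 h. At 0 h it had 15.4, 10.7 and 14.0 FPKM in 162 and 47.7, 36.8 and 55.0 FPKM in 13-5A. The varieties did not overlap at either time. The difference over both times was -1.87 (SE 0.16, limma adjusted p = 3.09e-06; range under 21 alternatives 1.17e-06 to 2.3e-05).

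At 12 h limma called 6 members higher and 4 lower in 162 than in 13-5A, where 4.97% of all tested genes were called higher and 2.92% lower, 7.9% together. With single libraries left out, the calls at 12 h ran from 7 to 13. Without replicate 3 of 13-5A at 12 h, 4 were higher and 3 lower, and without replicate 2 of that group 6 were higher and 7 lower. At 0 h it called 9 higher and 13 lower, where 11.7% and 3.08% of all tested genes were called, 14.8% together. With single libraries left out, the calls at 0 h ran from 22 to 28, the most without replicate 2 of 162 at 0 h, with 14 higher and 14 lower. The 0 h calls also depended on the scaling: with median-ratio scaling 6 members were higher and 32 lower, which are 3.49% and 18.6% of the members, against 6.79% and 6.32% of all tested genes. The median difference at 0 h over all tested genes was -0.03 with that scaling and 0.24 without it, and over the members it was -0.34 with it and -0.05 without it. With a pseudocount of 0.1, 28 members were called at 12 h and 27 at 0 h, and with voom 20 and 28. The gap between the counts at the times thus depended on the processing, and nothing is read from it. These comparisons share libraries with the changes that chose the members.

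The differences between the varieties at the times were also set side by side. Limma called 3 members higher in 162 at both times, which is 50% of the list at 12 h and 33.3% of that at 0 h, and 3 lower at both times, which is 75% of the list at 12 h and 23.1% of that at 0 h. The lists are short and the same shares were not taken over all tested genes, so nothing is read from these overlaps. Whatever the calls, 60 members had a higher mean in 162 at both times, 72 a lower one, and 40 changed sign. The sign was the same at both times in 76.7% of the members and in 72.7% of all tested genes, so this share was near the background. The differences at 12 h and at 0 h, which share no library, correlated at r = 0.718 over the 172 members and at 0.712 over all tested genes. The SD of the difference over the members was 0.57 at 12 h and 0.77 at 0 h, and over all tested genes 0.65 at 12 h and 0.76 at 0 h. The difference was smaller in size at 12 h in 63.4% of the members and in 64.0% of all tested genes. The added 1 narrows differences at low levels, and the levels of the members were low at 12 h. Nothing is therefore read from their smaller SD at 12 h.

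**Figure D4:**
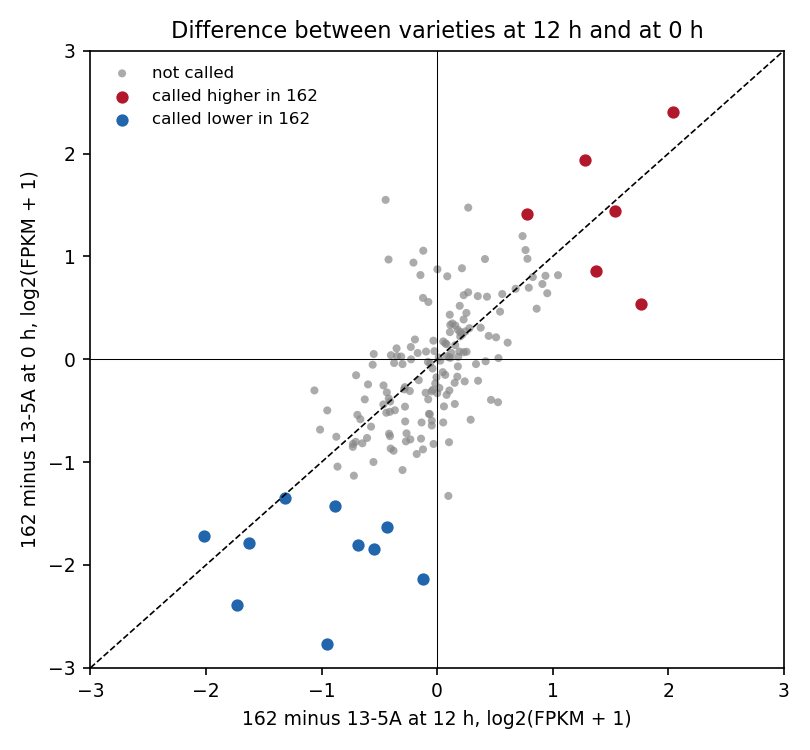
Difference between the varieties, 162 minus 13-5A on the log2(FPKM + 1) scale, for each of the 172 members, at 12 h on the horizontal axis and at 0 h on the vertical axis, with the 6 members called higher and the 10 called lower over both times in colour. The dashed line marks equal differences. The members follow it loosely, with a correlation of 0.718.

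The libraries of a group did not hold the members equally. In replicate 2 of 162 at 0 h the members were lower than in the other two replicates of the group in 108 of 172 cases, 62.8%, while this library was lowest for 34.7% of all tested genes. Its median deviation from the group mean was -0.18 over the members and 0.03 over all tested genes. Replicate 1 of the same group was the highest for 87 members, 50.6%, and for 32.3% of all tested genes, with median deviations of 0.13 over the members and -0.04 over all tested genes. In replicates 1 and 2 of 162 at 0 h the median deviation of the members thus had the opposite sign to that of all tested genes. The signs were also opposite, with smaller deviations of the members, in replicates 1 and 3 of 13-5A at 12 h and replicate 2 of 13-5A at 0 h. In the other 3 groups the median deviations of the members lay between -0.07 and 0.05. Without replicate 2 of 162 at 0 h, 174 genes met the rule, 160 of them members, and the median change of the members in 162 was -1.96.

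**Figure D5:**
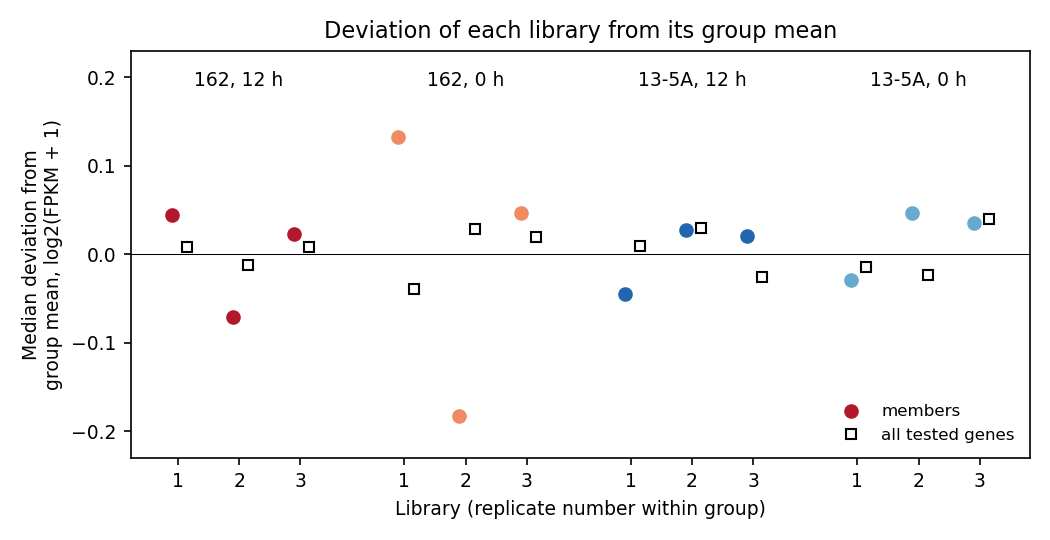
Median deviation of each library from its group mean on the log2(FPKM + 1) scale, over the 172 members (filled circles, coloured by group) and over all tested genes (open squares). Replicate 2 of 162 at 0 h lies lowest for the members at -0.18, and replicate 1 of that group highest at 0.13.

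The relative spread between replicates is given as a description, because the rule chose members with a low 12 h mean, which is the denominator of the coefficient of variation at 12 h. The median coefficient of variation of the members was 32.2% in 162 at 12 h and 22.6% at 0 h, and 27.8% in 13-5A at 12 h and 16.8% at 0 h. Over all tested genes the medians were 16.9% in 162 at 12 h and 19.1% at 0 h, and 14.1% in 13-5A at 12 h and 12.9% at 0 h. It was larger at 12 h in 120 members in 162, 69.8%, against 44.9% of all tested genes, and in 121 members in 13-5A, 70.3%, against 52.9%. Counting error alone would give the median member 8.97% in 162 at 12 h and 3.82% at 0 h, and 8.97% in 13-5A at 12 h and 3.63% at 0 h.

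The recovered length of the members ranged from 153 to 5498 bases, with a median of 1502 bases, against 1645 bases over all tested genes. Length and mean fall correlated at a Spearman coefficient of 0.207 over the members, a weak relation in which longer members fell less, given as a description.

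Both limits of the rule cut through a continuum. The 3 members nearest to the limit on the change had a change in the less affected variety of -1.504, -1.505 and -1.507, and the 3 genes just outside it had -1.499, -1.498 and -1.497. Among genes below 30 FPKM, 215 passed the limit in 162 without passing it in 13-5A, of which 101 still had a change of -1 or lower in 13-5A. Another 182 passed it in 13-5A without passing it in 162, of which 112 had a change of -1 or lower in 162. At the level limit, members with 29.9 and 29.8 FPKM stood beside excluded genes with 30.03 and 30.2 FPKM.

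Above that level, 128 genes met the same limits on the change. Their median change was -2.02 in 162 and -2.21 in 13-5A. They kept a median of 23.5% of their 0 h level in 162 and 21.2% in 13-5A, where the members kept 18.4% and 17.1%. Because a fixed amount is added before the logarithm is taken, less abundant genes must lose a larger share to meet these limits. Nothing is therefore read from the lower shares left in the members. Over both times 5 of the 128 abundant genes were called higher in 162 and 22 lower, 3.91% and 17.2%, beside 3.49% and 5.81% of the members. No test of the difference between the sets was made.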

How the data were processed

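The authors deposited FPKM, 1 value per gene and library, for 21691 genes. How reads were aligned and counted, and on which build and annotation, is not given in the sources used here. Per the labels' protocols, RNA was extracted with TRIzol and sequenced as paired-end reads after VAHTS Universal V6 library preparation. Each column name matched 1 sample's description, which left 0 columns unused. FPKM were transformed to log2(FPKM + 1). Genes averaging 1 FPKM or more in the 12 libraries entered a limma fit (version 3.58.1, R 4.3.3) on the 4 groups, with an intensity trend, no covariate and 8 residual degrees of freedom. P-values were adjusted by Benjamini-Hochberg over all 15592 genes, and a call needed an adjusted p under 0.05 and a log2 difference of at least 1. All tests are two-sided. Such differences understate the change of genes with low values.

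Gene lengths and library totals were solved for jointly from the FPKM values. With them, 100% of the values of the tested genes were whole reads within 0.001; a unit may be a read or a pair of reads. Both steps were tested on simulated data. Tables and figures were made with Python 3.11.15, numpy 2.4.6, pandas 2.3.3 and matplotlib 3.10.9. Limma's voom, an alternative, used the recovered reads and library totals with no further scaling.

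The members, lists and tests were chosen with earlier results of these data known. Since identifiers carry no names, at most 2 members per direction and comparison are named, all averaging 5 FPKM or more at 0 h: those with the largest mean fall, the largest difference between varieties over both times among called members, and the largest interaction, plus the member with the largest SD within groups. Others were named after their values were seen. Gene lists and leaf markers could not be matched and were not used. Alternatives changed the pseudocount (0.1), the filter (none, or 5 FPKM), the scaling (TPM or median ratio), the trend, the fold minimum, the block (replicate number), the test (voom), the limit on the fall and the libraries (each left out).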

Additional observations from a re-analysis of the deposited data

Results flagged for a closer look

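In 4 named members the fit across all genes put the difference between the changes of the varieties past its threshold. The interactions, the change in 162 minus that in 13-5A on the log2(FPKM + 1) scale, were 2.02 for MELO3C020857.2, 1.82 for MELO3C002459.2, -2.0 for MELO3C012507.2 and -1.39 for MELO3C025357.2. The rule that chose the members used both changes, so these values are a description. MELO3C020857.2 and MELO3C002459.2 stood lower in 162 than in 13-5A at 0 h, by -2.14 and -2.77. MELO3C012507.2 and MELO3C025357.2 stood higher in 162 at 0 h, by 1.55 and 0.97.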

How the results depend on the processing

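Recomputing each result under its alternatives gave 328 values. Of these, 295 stayed close (a count by less than 1.5 times, a median by less than the replicate SD, a gene's call as before), 29 moved further and 4 lost a call. Most of the 328 values belong to single named members, where a call absent before and after also counts as close. All 29 moves were among the counts and medians of the set, so the pooled tally overstates how stable those are. The 16 calls between varieties over both times became 31 with a pseudocount of 0.1, 31 with voom and 76 without the fold minimum. The 22 calls at 0 h became 38 with median-ratio scaling and 66 without the fold minimum. The 10 calls at 12 h became 17 with equal totals (TPM), 28 with a pseudocount of 0.1, 20 with voom and 32 without the fold minimum. More calls without the fold minimum follow from its construction; for the rest the cause was not tested. The 10 interactions, for which alternatives were chosen after seeing the data, became 5 without the filter, 5 with a pseudocount of 0.1, 6 with a replicate block and 3 with voom. They ran from 4 to 9 with each library left out, and were over 1.5 times fewer without replicates 1 and 3 of 13-5A at 0 h (4 each), replicates 1, 2 and 3 of 13-5A at 12 h (4, 5 and 6), replicate 3 of 162 at 0 h (6) and replicates 1 and 2 of 162 at 12 h (6 each).

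The rule gave 544 genes with a pseudocount of 0.1, 617 with a fall of at least 1 and 38 with a fall of at least 2; it gave 211 with TPM, the level limit rescaled likewise, and 155 with median-ratio scaling, of which 171 and 142 were members. Leaving out each library gave 159 to 183. With a pseudocount of 0.1 the median change was -2.42 in 162 and -2.53 in 13-5A. In 13-5A it was -2.08 with TPM and -2.06 with median-ratio scaling, and -2.01 to -1.93 with each library left out. MELO3C010668.2, lower in 162 over both times by -1.33 (limma adjusted p = 0.0231), lost its call without replicate 3 of 13-5A at 12 h, replicate 2 of 162 at 0 h, or replicates 1 or 2 of 162 at 12 h, with adjusted p up to 0.0582.

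The labels do not say whether replicate numbers pair the libraries. Deviations of same-numbered libraries correlated at -0.31 to 0.31 in 18 pairs, 2 of them over 0.1. Differently numbered libraries were not compared, so these values cannot decide whether the libraries are paired. The replicate block gave 16, 22 and 9 calls between varieties over both times, at 0 h and at 12 h. Depth limits members with few reads at 12 h.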
